A study of Mus musculus with 4 samples.

Results

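The genes described are 9 members of the blood clotting and plasminogen activation systems: Serpinb2, Plau, Plaur, F3, F7, F10, F13a1, Thbd and Procr. They were taken by gene symbol, on the primary chromosomes, from a gene count table of 32617 entries. Of the 9 genes, 6 passed the filter on low counts and were tested (Plau, Plaur, F10, F13a1, Thbd and Procr), among 14104 genes tested in all. F7, Serpinb2 and F3 had too few counts for the test and are described by their counts.

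The libraries came from macrophages grown from blood monocytes of C57BL/6J mice aged 10 to 16 weeks. Blood of 60 mice, 1 ml from each, was pooled as each experiment needed, CD11b-selected monocytes were taken, and all cells were cultured for 6 or 7 days with M-CSF at 30 ng/ml. The M-CSF group (1 library) is known as unstimulated only from its title. The group of classically activated macrophages (CAM, 1 library) received IFNγ (20 ng/ml) together with LPS (500 ng/ml). The CAM+mML56 group (2 libraries) was CAM given mML56, a peptide that mimics soluble Ninj1; its strain label reads C57BL/7J, and the labels give neither its dose nor how long cells were stimulated. The labels do not state that the libraries came from separate cultures, so the spread between the peptide libraries may be technical. The main question of the series was what the peptide changed in CAM.

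Macrophages carry part of both systems on their surface. Tissue factor (F3) binds factor VII (F7) and starts clotting by activating factor X (F10), which makes thrombin; thrombin forms fibrin, and factor XIII, whose catalytic subunit is F13a1, cross-links it. Thrombomodulin (Thbd) turns thrombin toward activating protein C, and the endothelial protein C receptor (Procr) presents protein C for that step. In the plasminogen system urokinase (Plau), held by its receptor (Plaur), converts plasminogen to plasmin, which digests fibrin and matrix, and serpins such as Serpinb2 inhibit urokinase.

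Promoter sequences from RefSeq (build GRCm38.p6) matched 7 of the 9 genes; Plau and Thbd had no entry. The 250 bases before each RefSeq start were searched on both strands for the letters TATAAA, GGGNNTTCC (NF-kB, with a longer NF-kB consensus, strict and loose, that is not spelled out), TGANTCA (AP-1), TGACGTCA (cyclic AMP element), TTCNNNGAA (STAT) and GGGCGG (GC box). The letters TGANTCA stood in 4 of the 7 windows, against 6.75% of 32817 windows of all genes. No other letters searched stood in as many of the 7 windows, and the 4 windows are shown here. Of these genes 2, Plaur and Procr, rose on activation, while the other 2, F3 and Serpinb2, had counts at or near 0. F10 also rose on activation and held no match. A link between these letters and activation was not tested. Capitals mark TGANTCA.
Plaur, chr7:24462233-24462482, plus strand: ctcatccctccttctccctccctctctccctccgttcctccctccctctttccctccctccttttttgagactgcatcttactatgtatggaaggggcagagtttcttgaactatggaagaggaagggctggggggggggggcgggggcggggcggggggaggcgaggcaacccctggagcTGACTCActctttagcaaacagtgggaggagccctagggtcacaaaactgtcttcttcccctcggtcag
Procr, chr2:155750967-155751116, plus strand: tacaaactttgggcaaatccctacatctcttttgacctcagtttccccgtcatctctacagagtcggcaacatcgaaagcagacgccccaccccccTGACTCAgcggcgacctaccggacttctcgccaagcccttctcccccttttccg
F3, chr3:121723287-121723536, plus strand: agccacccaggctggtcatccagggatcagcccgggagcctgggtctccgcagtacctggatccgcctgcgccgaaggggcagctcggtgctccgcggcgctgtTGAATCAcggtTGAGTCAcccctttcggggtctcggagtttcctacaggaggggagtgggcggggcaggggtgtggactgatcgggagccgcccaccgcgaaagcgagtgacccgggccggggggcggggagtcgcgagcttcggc
Serpinb2, chr1:107511173-107511422, plus strand: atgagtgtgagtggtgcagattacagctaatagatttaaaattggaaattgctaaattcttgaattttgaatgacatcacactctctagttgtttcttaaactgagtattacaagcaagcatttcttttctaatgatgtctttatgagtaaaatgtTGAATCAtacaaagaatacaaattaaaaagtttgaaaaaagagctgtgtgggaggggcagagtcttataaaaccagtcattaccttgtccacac

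In Plaur the match TGACTCA lay 69 to 63 bases before the RefSeq start, and in Procr 154 to 148 bases before it; the Procr sequence is shown up to the start of the gene in the deposited table, which lies upstream of the RefSeq start. F3 held TGAATCA at 146 to 140 and TGAGTCA at 135 to 129 bases. Serpinb2 held TGAATCA at 94 to 88 bases and, at 29 to 24 bases, TATAAA, which 12.4% of all windows held. The letters GGGCGG occurred 3 times in each of Plaur and F3, and in 32.7% of all windows. None of the NF-kB, cyclic AMP or STAT letters occurred in the 7 windows; in all windows their shares ran from 0.14% to 7.01%. F7, F10 and F13a1 held none of the letters searched. A match of letters is a description and does not show that a factor binds there.

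The libraries held 10333986 to 12842680 estimated counts each. Levels are given as counts per 1000000 (CPM) after TMM scaling, which sets libraries to a common composition; 3 counts correspond to 0.194 to 0.325 CPM. All 10 macrophage markers had counts in all 4 libraries. In CAM against M-CSF 4 of them rose and 4 fell, beside 21.4% and 23.0% of all tested genes. Cd68, a lysosomal protein of macrophages, fell from 13.4 to 1.19 CPM and held 39.0 and 32.8 CPM with the peptide, Lyz2, lysozyme, fell 4.58-fold, and Csf1r, the M-CSF receptor, fell 6.10-fold. The 5 B cell markers summed to 113 CPM in M-CSF and to at most 2.38 CPM in the others. The gene Eif1, which most cells express, was listed at 0 in CAM but had 511 counts in M-CSF and 556 and 732 in peptide libraries 1 and 2, so a listed 0 may be a failed estimate; of 12 such widely expressed genes looked up, it was the only one at 0 in a library. Rplp0, a ribosomal protein gene, had 184 counts in CAM but 8 in M-CSF and 22 and 17 with the peptide, so low estimates of such genes were not limited to listed zeros. Lars2 and the gene model Gm15662 took 6.40% to 14.1% of counts, the most in CAM. The test was edgeR's quasi-likelihood test with Benjamini-Hochberg adjustment over all genes tested and a threshold of 0.05. The M-CSF and CAM groups had 1 library each, so they have no SD, and the test assumed that they vary like the pair of peptide libraries. In bulk libraries fewer cells of a type and less RNA per cell cannot be told apart.

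**Figure D1:**
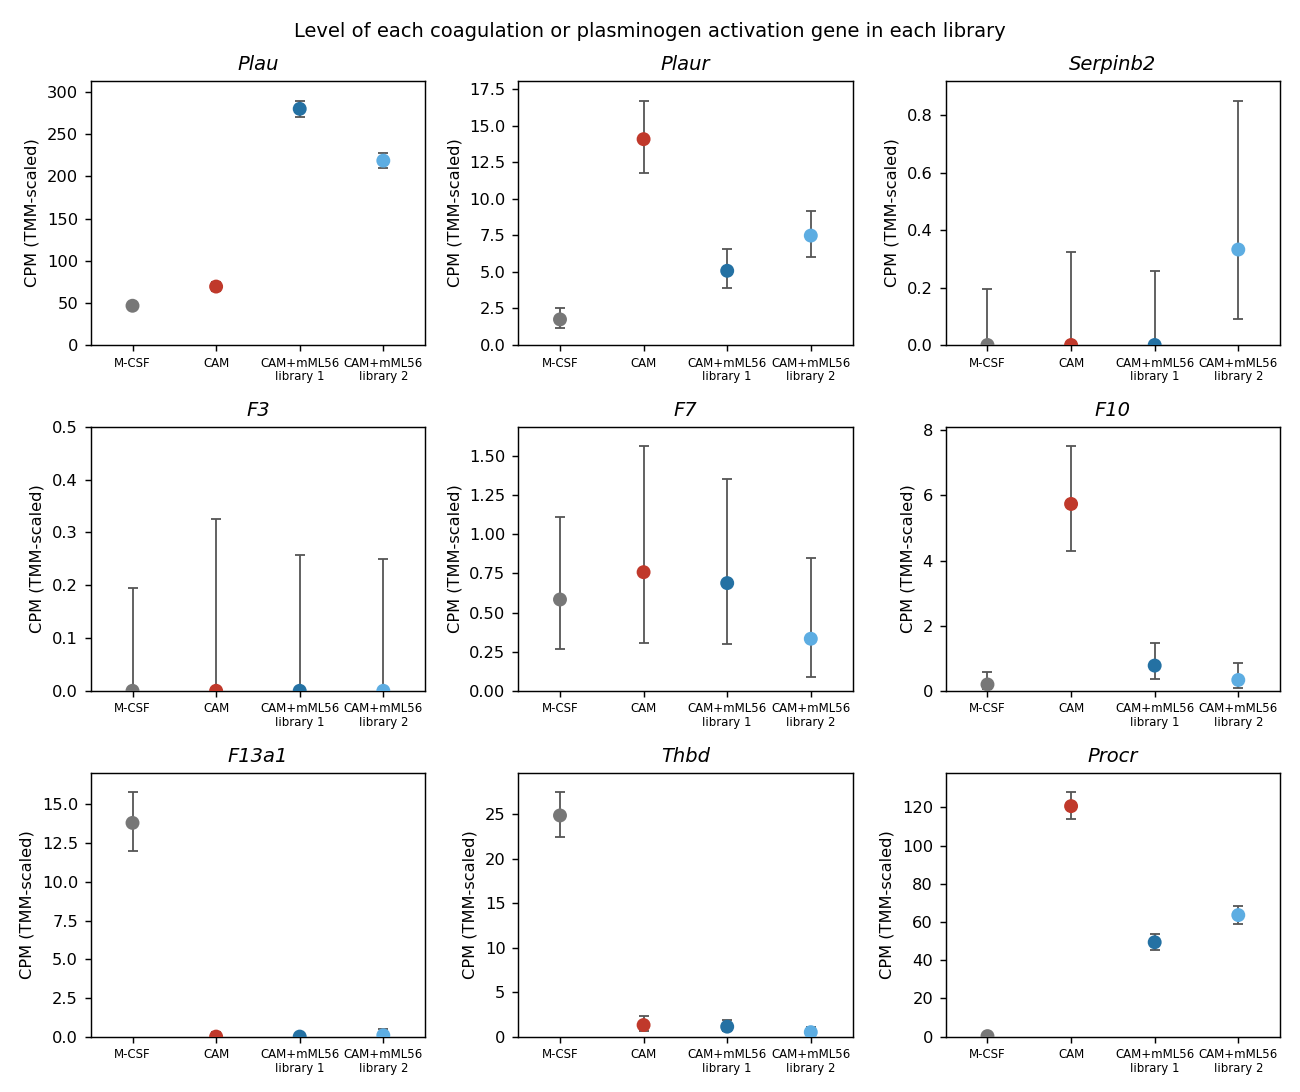
Level of each of the 9 genes in the 4 libraries. The y axis is CPM after TMM scaling on a linear scale from 0, points are libraries, and bars are 95% Poisson intervals (for a count of 0, up to 3 counts), which cover counting error only. Plau is highest in the peptide libraries, Plaur, F10 and Procr in CAM, and Thbd and F13a1 in M-CSF, while F3 has no counts.

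Activation raised the receptors Plaur and Procr and the clotting protease F10, and lowered thrombomodulin and the factor XIII subunit. Procr went from 0.259 to 121 CPM, Plaur rose 8.0-fold, and Thbd fell from 24.9 to 1.30 CPM. The peptide then changed the picture gene by gene. Plau rose 3.6-fold over CAM, while Plaur, F10 and Procr were lower than in CAM and Thbd and F13a1 stood at or under 1.12 CPM. Among the 6 tested genes 4 rose and 2 fell in CAM against M-CSF, where 44.4% of all tested genes passed the threshold (21.4% higher, 23.0% lower). With the peptide against CAM 1 rose and 3 fell, against 37.7% of all tested genes (20.6% higher, 17.1% lower). With the peptide against M-CSF 3 rose and 2 fell, against 41.2% (22.1% higher, 19% lower). By fitted fold change 5, 5 and 6 of the 6 were at least 2-fold apart in these comparisons, against 47.7%, 36.9% and 38.5% of all tested genes; in the middle count F13a1 rests on 1 count. F13a1, Thbd, F10 and Procr passed the filter through groups in which they were high, so these counts support nothing about the genes as a group.

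Plau encodes urokinase, the secreted plasminogen activator (ENSMUSG00000021822, mm10 chromosome 14, 20836662 to 20843388, plus strand). M-CSF held 46.5 CPM and CAM 69.3 CPM, while peptide library 1 held 280 CPM and peptide library 2 held 219 CPM. Both peptide libraries lay far above CAM and M-CSF, and their own gap was small beside that distance. The log2 fold change of peptide against CAM was 1.85 (SE 0.20, edgeR adjusted p = 2.94e-05), and against M-CSF it was 2.42 (SE 0.21, edgeR adjusted p = 7.37e-07), a 5.36-fold difference. The rise on activation alone was 1.49-fold, a log2 fold change of 0.57 (SE 0.22, edgeR adjusted p = 0.0486), and it rested on the scaling. With library size only it was 0.10 (edgeR adjusted p = 0.675), and it did not pass in DESeq2 (adjusted p = 0.126) or without the filter on low counts (edgeR adjusted p = 0.0953).

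Plaur, the membrane-anchored urokinase receptor (ENSMUSG00000046223, chromosome 7, 24462484 to 24475968, plus strand), followed another course. M-CSF held 1.75 CPM (27 counts), CAM 14.1 CPM (130 counts), and the peptide libraries 5.08 CPM (59 counts) and 7.48 CPM (90 counts). Both peptide libraries lay between M-CSF and CAM. The log2 fold change of CAM against M-CSF was 3.0 (SE 0.47, edgeR adjusted p = 0.000179). With the peptide it was -1.16 against CAM (SE 0.35, edgeR adjusted p = 0.0211), a call lost with library size only (adjusted p = 0.0612) and in DESeq2 (adjusted p = 0.315). Against M-CSF the peptide libraries were 3.58-fold higher (log2 1.84, SE 0.43, edgeR adjusted p = 0.00367), which DESeq2 did not call (adjusted p = 0.0639). The activator and its receptor thus moved in opposite directions between CAM and peptide libraries: Plau up and Plaur down.

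The length that the deposited table lists for Plaur is 347 bases, and in GENCODE M21 that is the shortest of its 6 transcripts, the longest protein-coding one having 1506. For F10 the table lists 609 bases against 2503, and for F3 700 against 1872. Which transcripts entered the counts of these genes is not given in the sources used here, so their levels are compared between libraries and not with other genes.

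Serpinb2 encodes plasminogen activator inhibitor type 2, a serpin known as one of the most LPS-inducible genes of mouse macrophages (ENSMUSG00000062345, chromosome 1, 107511423 to 107535478, plus strand). It was listed at 0 in M-CSF, CAM and peptide library 1, and had 4 counts in peptide library 2, or 0.333 CPM. By counting error alone, a count of 0 allows up to 0.194 CPM in M-CSF, 0.325 in CAM and 0.258 in peptide library 1. A failed estimate is not covered by these bounds. No rise in CAM was detectable at this depth. Serpinb2 overlaps Serpinb10, which had 1 count in M-CSF and none in the other libraries.

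F3, tissue factor, the receptor that starts clotting (ENSMUSG00000028128, chromosome 3, 121723537 to 121735048, plus strand), was listed at 0 in all 4 libraries. By counting error alone this allows up to 0.194 to 0.325 CPM, and a failed estimate is not covered. F7, the protease that tissue factor binds (ENSMUSG00000031443, chromosome 8, 13026034 to 13035809, plus strand), had 9 counts (M-CSF), 7 (CAM), 8 and 4 (peptide). These are 0.583, 0.758, 0.688 and 0.333 CPM, with 95% Poisson intervals that all overlap. The ratio of M-CSF to CAM was 0.77 (95% counting interval 0.255 to 2.43) and that of peptide to CAM was 0.669 (0.243 to 2.01). Both intervals include equal levels, and no difference was detectable at this depth.

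F10, the next protease in the cascade, lies 1498 bases downstream of F7 on the same strand (ENSMUSG00000031444, chromosome 8, 13037308 to 13056676). In contrast to its neighbour it had 53 counts in CAM, against 3 in M-CSF and 9 and 4 in the peptide libraries. M-CSF held 0.194 CPM and CAM 5.74 CPM, and the peptide libraries held 0.774 and 0.333 CPM, so CAM stood alone above the other 3 libraries. The ratio of CAM to M-CSF was 29.5, with a 95% counting interval from 9.57 to 148 (edgeR adjusted p = 0.00118). The peptide lowered F10 by a log2 fold change of -3.36 (SE 0.68, edgeR adjusted p = 0.00207), and DESeq2 did not call it (adjusted p = 0.1). Rplp0 was likewise high in CAM alone, at 184 counts against 8 to 22; the part of estimation errors in the F10 result was not tested. Without peptide library 1 that log2 value was -4.07, and without peptide library 2 it was -2.83. The peptide libraries did not differ from M-CSF past the threshold (ratio 2.83, interval 0.777 to 15.5, edgeR adjusted p = 0.269). Their log2 difference was 1.46, or 0.74 without peptide library 1 and 2.0 without peptide library 2. F7 and F10 are known chiefly as liver products, and the 5 liver markers looked up were at 0 in M-CSF, CAM and peptide library 2 and summed to 0.086 CPM in peptide library 1.

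F13a1 encodes the transglutaminase subunit of factor XIII, which macrophages and platelets both make (ENSMUSG00000039109, chromosome 13, 36867178 to 37050244, minus strand). It had 213 counts in M-CSF, or 13.8 CPM, was listed at 0 in CAM and peptide library 1, and had 1 count in peptide library 2. It was thus present in the unstimulated library and at or under the floor in all 3 activated libraries. Taking 3 counts as the floor for counting error, the level was at least 42.5-fold lower in CAM (edgeR adjusted p = 1.68e-05). That bound does not cover a failed estimate, which the listed 0 of Eif1 in the same CAM library may be. The ratio of M-CSF to the peptide group, which rests on that 1 count, was 327 with a 95% counting interval from 58.0 to 12958 (edgeR adjusted p = 8.71e-07).

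On activation 4 of 7 tested platelet markers fell and none rose, beside 23.0% and 21.4% of all tested genes. The sum of all 9 was 136 CPM in M-CSF, 14.7 in CAM, and 22.8 and 23.4 CPM with the peptide. Most of the M-CSF sum came from Pf4 and from Itgb3, which went from 47.8 to 5.52 CPM in CAM. Pf4, a platelet chemokine, fell from 74.3 CPM in M-CSF to 2.06 in CAM, and peptide libraries held 11.8 and 8.65 CPM of it. Ppbp, another platelet chemokine, was at 0.324 CPM in M-CSF and at 0 in the other libraries. Gp6, Itga2b and Tubb1 did not fall on activation (log2 fold changes 2.13, 0.14 and 2.02), and none of these values passed the threshold. Gp6 went from 0.389 CPM in M-CSF to 1.73 in CAM, and to 2.41 and 5.16 CPM with the peptide. Its rise with the peptide over M-CSF passed (edgeR adjusted p = 0.0038). In that comparison 4 of the 7 tested markers fell and 1 rose. Among the 7 tested platelet markers 2 rose with the peptide against CAM, Pf4 and Treml1, and none fell, beside 20.6% and 17.1% of all tested genes. Treml1 had 7 and 9 counts with the peptide against a listed 0 in CAM, which may be a failed estimate. Its fall from 92 counts in M-CSF rests on the same 0. F13a1 remained at or under the floor. The part of platelet RNA in the F13a1 result was not tested.

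Thrombomodulin and the protein C receptor, which act together in activating protein C, went opposite ways on activation. Thbd (ENSMUSG00000074743, chromosome 2, 148404466 to 148408188, minus strand) reached 24.9 CPM in M-CSF, against 1.30 CPM in CAM, 1.12 in peptide library 1 and 0.499 in peptide library 2. The 3 activated libraries were all low, at 12, 13 and 6 counts against 384 in M-CSF. The log2 fold change of CAM against M-CSF was -4.25 (SE 0.52, edgeR adjusted p = 2.23e-05), a 19-fold difference. Peptide against CAM gave -0.68 (SE 0.58, edgeR adjusted p = 0.375), with a 95% interval from -1.82 to 0.45 on the log2 scale. That value was -1.36 without peptide library 1 and -0.17 without peptide library 2. Against M-CSF the peptide value was -4.93 (SE 0.41, edgeR adjusted p = 5.49e-07), or -5.61 without peptide library 1 and -4.39 without peptide library 2.

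Procr (ENSMUSG00000027611, chromosome 2, 155751117 to 155755471, plus strand) had 4 counts in M-CSF against 1114 in CAM, while peptide libraries 1 and 2 had 574 and 765. In CPM these counts are 0.259, 121, 49.4 and 63.6. The peptide libraries lay below CAM but far above M-CSF. The ratio of CAM to M-CSF was 465, with a 95% counting interval from 181 to 1711 (edgeR log2 fold change 8.81, SE 0.39, adjusted p = 2.75e-09). The peptide lowered Procr 2.13-fold from CAM, to 56.5 ± 10.1 CPM (SD, n = 2; edgeR log2 fold change -1.09, SE 0.19, adjusted p = 0.000655). It was still higher than in M-CSF by a log2 value of 7.71 (SE 0.39, edgeR adjusted p = 4.56e-09). The call against CAM held in all 4 other fits, including DESeq2 (adjusted p = 0.00434).

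Procr and Thbd are also endothelial genes. Of 9 fibroblast and endothelial markers, 6 were tested. In CAM against M-CSF 1 of the 6 rose and none fell, beside 21.4% and 23.0% of all tested genes. The gene that rose was the VEGF receptor Kdr, at 11.9 CPM in M-CSF, 58.9 in CAM, and 95.1 and 90.0 CPM with the peptide. The sum of the 9 was 34.1, 85.3, 120 and 129 CPM in that order. Among the other endothelial markers, Emcn was at 0 in all 4 libraries. Cdh5 had 0.194 CPM in M-CSF, 1.62 in CAM and 0 with the peptide. Tek had too few counts for the test, with 6 in CAM (0.65 CPM), 2 in peptide library 1 (0.172 CPM) and 0 elsewhere. Pecam1 was present throughout, and no comparison of it passed the threshold. Its levels were 18.9 CPM (M-CSF), 22.5 CPM (CAM), 19.4 CPM (peptide library 1) and 29.9 CPM (peptide library 2). With the peptide against CAM, 2 of the 6 tested rose (Kdr and Dcn) and 1 fell (Cdh5), beside 20.6% and 17.1% of all tested genes. Dcn had 44 and 85 counts with the peptide against a listed 0 in M-CSF and CAM. Cdh5 had 15 counts in CAM against a listed 0 in both peptide libraries. Either listed 0 may be a failed estimate. The part of these cells in the Procr result was not tested.

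**Figure D2:**
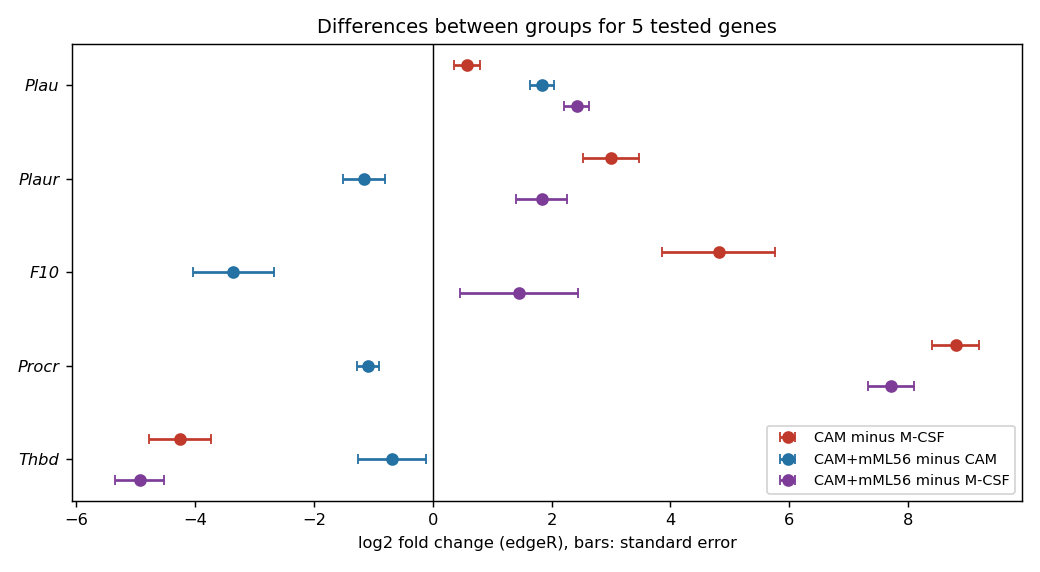
Differences between groups for the 5 tested genes with counts in every library. The x axis is the edgeR log2 fold change, each colour is a comparison, and bars are standard errors. The peptide values against CAM are above 0 for Plau and below 0 for Plaur, F10 and Procr, and the bar of Thbd is the closest to 0. The comparisons share libraries and are not independent.

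The order of levels across groups gave 3 courses. Plau was lowest in M-CSF and highest with the peptide. Plaur, F10 and Procr were lowest in M-CSF, highest in CAM and in between with the peptide, although for F10 the peptide and M-CSF groups were not apart past the threshold. Thbd and F13a1 were highest in M-CSF, and for both genes the CAM and peptide groups were not apart past the threshold (edgeR adjusted p = 0.375 and 0.536).

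Genes with a like course were looked up among 8020 others at 10 CPM or more in a library, by the root mean square distance between log2 CPM values centred over the 4 libraries. For Plau the nearest was Klf10, a transcription factor induced by TGF-beta, at a distance of 0.049, with 37.9 CPM in M-CSF, 53.9 in CAM, and 226 and 187 CPM with the peptide. Ddit4, an inhibitor of mTOR signalling, came next at 0.13. For Plaur they were Mid1, a ubiquitin ligase of the TRIM family, at 0.124 and Sp140, a nuclear body protein, at 0.132. For Procr they were Ccl7, a monocyte chemokine, at 0.15 and Inhba, the activin A subunit, at 0.264. Ccl7 stood at 2.46 CPM in M-CSF, 634 in CAM, and 347 and 379 CPM with the peptide. For Thbd they were Frat1 at 0.167 and Atp6v0d2, a proton pump subunit, at 0.185, and for F13a1 the adhesion receptor Adgre4 at 0.267 and the apolipoprotein Apoc2 at 0.274. The distances rest on 4 libraries and describe these libraries only.

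Of 53 other genes of these systems, 33 were tested and 11 were at 0 in every library. Among those at 0 were plasminogen itself (Plg) and the 3 fibrinogen chains (Fga, Fgb and Fgg), which the liver makes. In CAM against M-CSF 11 of the 33 rose and 7 fell, where 21.4% of all tested genes rose and 23.0% fell. The median log2 fold change of the 33 was -0.31, against a median of -0.07 over all genes tested. With library size only the split turned, to 9 that rose and 12 that fell. With the peptide against CAM 4 rose and 5 fell, beside 20.6% and 17.1% of all tested genes (median -0.11, against 0.05 over all genes), and 3 and 2 in DESeq2. Against M-CSF 10 rose and 8 fell with the peptide, beside 22.1% and 19% of all tested genes (median -0.18, against -0.08), or 9 and 10 with library size only.

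Of the plasminogen docking proteins 5 of 7 rose on activation and none fell, beside 21.4% and 23.0% of all tested genes. Anxa2, which binds plasminogen and its activators at the surface, went from 6.42 CPM in M-CSF to 34.2 in CAM (log2 fold change 2.41, SE 0.28, edgeR adjusted p = 1.23e-05), and Itgam, the integrin CD11b, from 261 to 991 CPM. With the peptide against CAM 2 of the 7 rose and 1 fell, beside 20.6% and 17.1% of all tested genes. Plgrkt, a plasminogen receptor of macrophages, stood at 50.2 CPM in M-CSF, 39.0 in CAM, and 203 and 179 CPM with the peptide. Its peptide libraries lay well above both other groups (log2 fold change 2.30 against CAM, SE 0.19, edgeR adjusted p = 3.97e-06), so Plau and Plgrkt were both higher with the peptide than in CAM. Anxa2 rose further, to 61.8 ± 11.9 CPM (SD, n = 2; edgeR adjusted p = 0.00926, and 0.0881 in DESeq2), and Itgam fell to 643 ± 55.3 CPM (edgeR adjusted p = 0.0139).

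Among plasminogen activators and their inhibitors Serpinb6a, an intracellular serpin, fell on activation. It stood at 104 CPM in M-CSF, 13.9 in CAM, and 99.7 and 100.1 CPM with the peptide, so CAM alone was low (log2 fold change 2.85 for peptide against CAM, SE 0.20, edgeR adjusted p = 1.52e-06). Eif1 was likewise low in the 1 CAM library alone, at 0 counts against 511 to 732. The part of estimation errors in the Serpinb6a result was not tested. Plat, the tissue-type activator, was at 3.5, 5.20, 2.93 and 3.24 CPM, and no comparison of it passed.

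Among anticoagulants 1 of 5 tested genes rose and 3 fell in CAM against M-CSF, beside 21.4% and 23.0% of all tested genes. Pros1, or protein S, the cofactor of activated protein C, fell from 68.7 CPM in M-CSF to 8.66 CPM in CAM (a log2 difference of -2.99, SE 0.29, edgeR adjusted p = 2.99e-06) and stayed at 9.72 and 7.90 CPM with the peptide. Tfpi, which inhibits factor X and the tissue factor complex, fell from 24.0 to 10.2 CPM. Serping1, the C1 and contact system inhibitor, was listed at 0 in M-CSF and reached 4.33 CPM in CAM and 8.81 ± 1.88 CPM (SD, n = 2) with the peptide. Against a floor of 3 counts per library it was at least 45.4-fold higher with the peptide than in M-CSF (edgeR adjusted p = 3.53e-06). That floor covers counting error only, not a failed estimate. None of the 5 passed the threshold between peptide and CAM.

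Of 13 other clotting factors and cofactors 5 were tested and 5 were at 0 in every library. In CAM against M-CSF 1 rose and none fell (21.4% and 23.0% of all tested genes), and with the peptide against CAM none rose and 2 fell (20.6% and 17.1%). Vwf, the carrier of factor VIII, was at 90.0 CPM in M-CSF, 69.5 in CAM, and 47.7 and 68.6 CPM with the peptide. It was lower with the peptide than in M-CSF (log2 fold change -0.63, SE 0.20, edgeR adjusted p = 0.0247), and its other comparisons did not pass. Factor V (F5), the cofactor of factor X, had 5.38 CPM in M-CSF, 1.41 in CAM, and 0.344 and 0 CPM with the peptide, a fall from M-CSF to peptide by a ratio of 31.8 (95% counting interval 12 to 119; edgeR adjusted p = 0.000364). Vkorc1, which recycles vitamin K for the making of factors VII and X and protein S, went from 24.7 CPM in M-CSF to 4.12 in CAM and 3.13 ± 0.315 CPM (SD, n = 2) with the peptide. F2rl2, a thrombin-activated receptor, fell from 5.64 to 0.541 CPM on activation (edgeR adjusted p = 0.00295, and 0.114 in DESeq2).

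Of 4 tested matrix and cross-linking partners, 2 rose and 1 fell on activation (21.4% and 23.0% of all tested genes), and 1 rose and 2 fell with the peptide against CAM (20.6% and 17.1%). Tgm2, the tissue transglutaminase and a relative of F13a1, went from 193 CPM in M-CSF to 2952 in CAM (log2 fold change 3.94, SE 0.27, edgeR adjusted p = 1.03e-07) and stood at 3336 and 3592 CPM with the peptide. F13a1 and Tgm2 therefore moved in opposite directions on activation. Thbs1, thrombospondin-1, went from 489 to 3196 CPM on activation and was at 758 and 770 CPM with the peptide (log2 fold change -2.06 against CAM, SE 0.18, edgeR adjusted p = 5.28e-06). Fn1, fibronectin, was at 4.86 and 7.58 CPM in M-CSF and CAM and fell to 1.39 ± 0.385 CPM (SD, n = 2) with the peptide (edgeR adjusted p = 0.00142, and 0.0756 in DESeq2). Gas6, a vitamin K-dependent relative of protein S, went from 1276 to 32.9 CPM on activation and to 61.6 ± 12.6 CPM (SD, n = 2) with the peptide, a rise from CAM by a log2 value of 0.90 (SE 0.22, edgeR adjusted p = 0.00579).

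**Figure D3:**
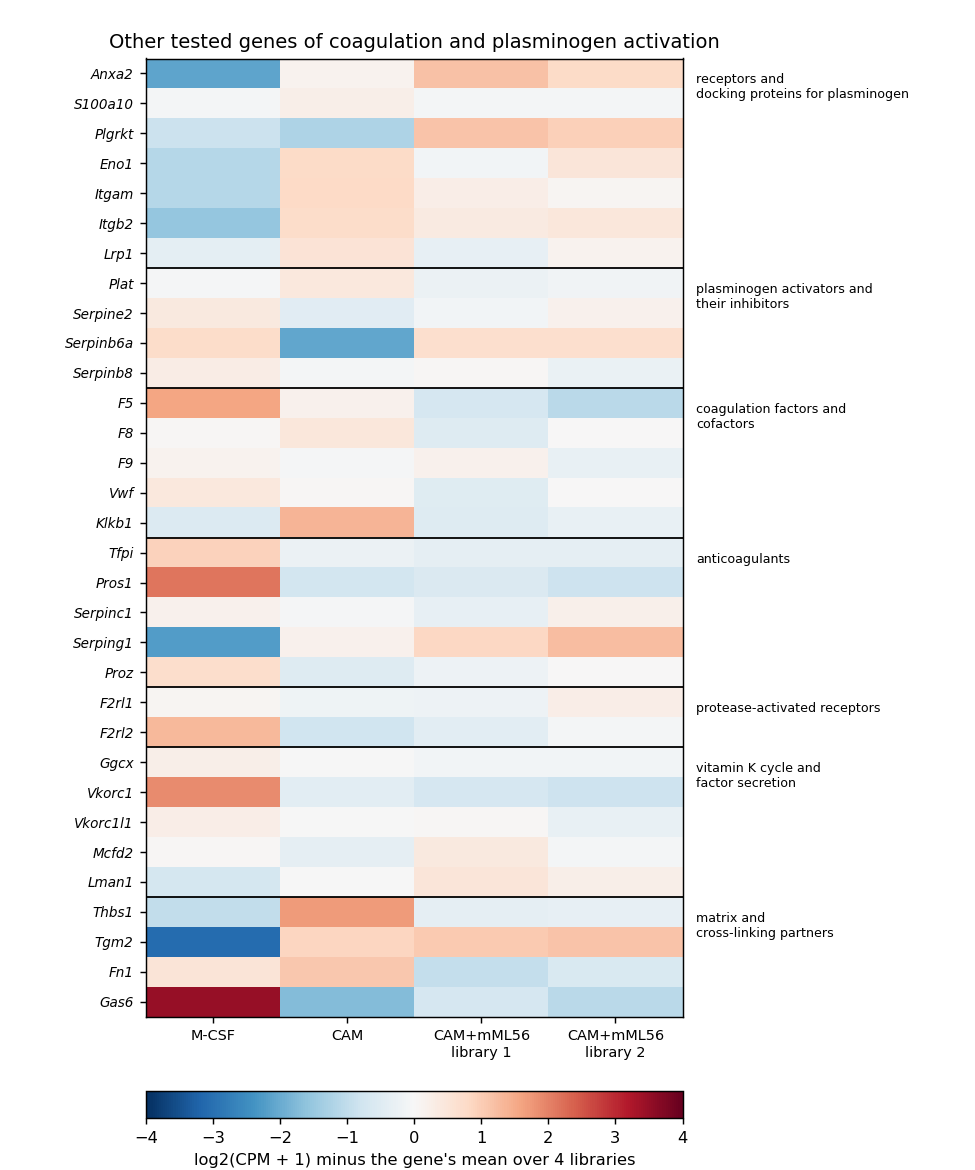
The 32 other genes shown of clotting and plasminogen activation by library. Colour is log2(CPM + 1) minus the gene's mean over the 4 libraries, red above and blue below it, and lines part the groups of genes. Tgm2 is low and Gas6 and Pros1 high in M-CSF alone, Serpinb6a is low in CAM alone, and Plgrkt is high in both peptide libraries.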

How the data were processed

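Messenger RNA was sequenced in 4 libraries in 3 groups, set by the sample titles. Estimated counts by gene, partly fractional and not scaled, are what the authors deposited; kallisto, StringTie and the build mm10 are named in the submitters' processing notes, and the kit was a directional one, per the labels' protocols. The deposited table also lists one transcript length per gene. Counts were rounded, filterByExpr kept 14104 genes, libraries were scaled by TMM, and edgeR 4.0.16 (R 4.3.3) fitted all 4 libraries in 3 groups (glmQLFit, glmQLFTest, 1 residual degree of freedom, Benjamini-Hochberg adjustment, threshold 0.05). Standard errors are the log2 fold change over the square root of F, and 95% intervals on the log2 scale use the normal quantile. Ratios at low counts carry exact conditional counting intervals; these and Poisson intervals cover counting error only. Alternatives were DESeq2 1.42.0 (its size factors alone, and its Wald test), library size only, no filter, and each peptide library left out. For Itgam, which has more than one row, the row with an Entrez identifier was used. A result among the other genes of these systems is not reported here. The 9 genes and all lists were chosen with earlier results of these data known. Named genes were the 9 members and, of the other genes, up to 4 in each direction per comparison with the largest changes past the threshold and at least 5 CPM in the higher group; further genes (Plat, Plg, Vwf, Tfpi, the fibrinogen chains and the markers given) were added after their values were seen.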

Additional observations from a re-analysis of the deposited data

How the results depend on the processing

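No paired analysis was possible because the groups compared share fewer than 2 replicate numbers. The direction of every tested gene among the 9 was kept in each comparison under DESeq2's size factors, library size only, the DESeq2 Wald test and no filter on low counts. DESeq2's Wald test gave fewer calls: 2 of the 9 genes with the peptide against CAM (4 in edgeR), and over all genes 3473 for CAM against M-CSF, 2349 for peptide against CAM and 3279 for peptide against M-CSF (6269, 5320 and 5804 in edgeR). The cause was not tested. With library size only, 28.5% of calls between CAM and M-CSF were higher in CAM (48.2% with TMM) and 33.2% of those between peptide and M-CSF were higher with the peptide (53.8% with TMM), and the median log2 fold change over all genes was -0.55 and -0.46. Of 72 single values of the 6 tested genes under the other fits, 65 kept direction and side of the threshold and 7 lost their call, all for Plau, Plaur and F10. Of 36 values with a peptide library left out, which have no test, 28 moved by less than the spread of the peptide pair. The other 8, for F10, F13a1 and Thbd, moved by more. The 28 do not show stability. Values of CAM against M-CSF use no peptide counts of the gene, so only the scaling could move them. The spread used was the SD of the pair's log2 CPM with a prior count of 2, not the gap between the 2 libraries. The mean of 2 libraries moves by only part of their gap when 1 is left out, so small moves were partly set in advance. Counts under about 10 limit Serpinb2, F3, F7 and, outside CAM, F10.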
